A study of Homo sapiens with 27 samples.

Results

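HCC827 is a human non-small cell lung cancer line, which the series presents as having active c-Met without depending on it. It was exposed to SGX-523, a selective inhibitor of the MET receptor kinase, at 1 uM for 24 h. The members described here are 6 of the 27 arrays of the series: 3 of HCC827 cells given SGX-523 for 24 h and 3 of HCC827 cells given the solvent DMSO, taken by their titles. For comparison, 3 arrays of HCC827 cells given SGX-523 for 48 h were used, and the same contrast in EBC-1 and MKN-45 cells, the MET-dependent lines of the series, with 3 SGX-523 24 h arrays and 3 DMSO arrays each. The labels do not give the time for which the DMSO cells were held, and the HCC827 DMSO arrays serve both times. They call the arrays biological replicates without naming separate cultures, so p-values measure the spread between these arrays, and each line stands for itself only.

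MET is the receptor for hepatocyte growth factor. Its kinase signals through RAS and ERK, through PI3K and AKT, and through STAT proteins, and MET-dependent tumour cells lose ERK output, cyclin D1 and DNA synthesis when the kinase is blocked. Transcripts of the ERK phosphatases (DUSP), the Sprouty and Spred feedback inhibitors and the ETV factors are common readouts of ERK activity, and insulin receptor and ERBB3 transcripts are readouts of FOXO activity. HCC827 is known for an activating mutation of EGFR, another receptor that feeds the same pathways.

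In HCC827, 24 h of SGX-523 left the measured transcripts close to their DMSO levels. Of 12386 genes tested, 4 differed with all 3 treated arrays (0.0323%), all higher in treated cells: SOX4, AKR1C3, VWA5A and TMT1A. Without treated replicate 3, an array that stood apart from the others, 20 genes differed (0.161%), 18 higher (0.145%) and 2 lower (0.0161%), and no called gene reached a 2-fold change in either fit. With all arrays 5 genes that were not called differed by 2-fold or more, ZNF440 higher and SRP9, ADAM10, RRN3 and SUCLA2 lower, and without replicate 3 none did. A gene was called at a Benjamini-Hochberg adjusted p under 0.05 in limma, and an unadjusted p under 0.05 was reached by 2613 genes with all arrays (21.1%) and 768 genes without replicate 3 (6.2%). The 2613 rests on a spread shared by all groups. Deviations from the group mean had a standard deviation of 0.404 on replicate 3, against 0.1 to 0.219 on the other HCC827 arrays. With replicate 3 kept, 516 genes reached that p from HCC827 arrays only and 731 with array weights. The 18 higher genes rose by 1.13-fold to 1.7-fold without replicate 3. The median size of the log2 difference over all genes was 0.06 in HCC827 without replicate 3 and 0.13 with it, beside 0.35 in EBC-1 and 0.35 in MKN-45.

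**Figure D1:**
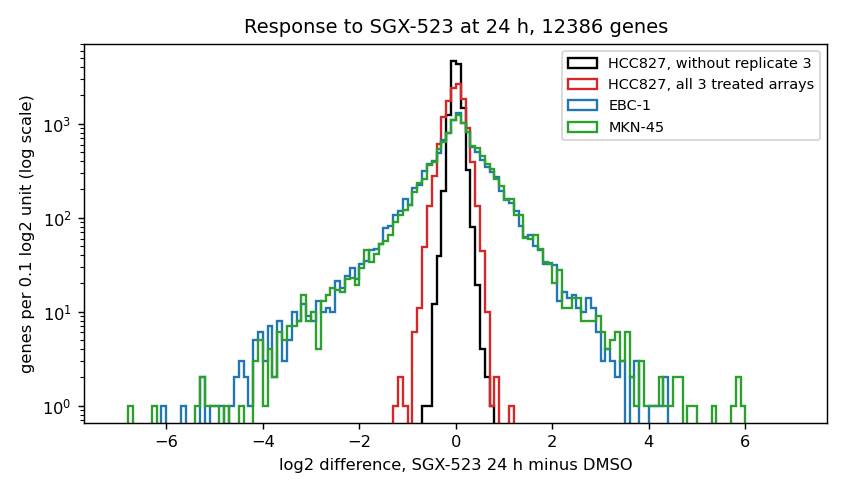
Number of genes (log scale) per 0.1 unit of the log2 difference, SGX-523 24 h minus DMSO, for 12386 genes in HCC827 without and with treated replicate 3, EBC-1 and MKN-45. The HCC827 differences without replicate 3 lie between -0.64 and 0.77, inside the wider range with all 3 arrays and the far wider ranges of the other 2 lines.

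The arrays bound how large an undetected change could be. Without replicate 3, the 95% interval of the log2 difference stayed within a 2-fold change either way for 12385 of the 12386 genes, the exception being FGG, within 1.5-fold for 12196 genes (98.5%) and within 1.25-fold for 8710 genes (70.3%). With all 3 treated arrays these numbers were 12241, 10499 and 5280 genes. These intervals use a spread shared by the 3 lines. From HCC827 arrays only, the numbers were 11833, 9241 and 4048 with all 3 treated arrays, and 12385, 12251 and 9767 without replicate 3. The median standard error was 0.09 without replicate 3 and 0.11 with it on the log2 scale.

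Replicate 3 of the SGX-523 24 h group correlated with the other 8 HCC827 arrays at Pearson r of 0.96227 to 0.9667 over 49395 probe sets, where the other 28 pairs of HCC827 arrays lay between 0.99285 and 0.99759. Against the mean of treated replicates 1 and 2, 3502 probe sets were at least 2-fold lower on replicate 3 and 1208 at least 2-fold higher. Between replicates 1 and 2, 2 probe sets differed that much. The standard deviation of the log2 values was 2.24 on replicate 3 and 2.35 to 2.39 on the other 8 arrays. The beta-actin probe sets at the 3′ end read 3.40 log2 units above those at the 5′ end on replicate 3, against 2.0 to 2.44 on the others, while the same gap for GAPDH was 0.16, inside their range. The added control transcripts had a median of 10.64 on replicate 3, against 10.29 to 10.42 on the others. The part of these measures in the gene values of replicate 3 was not tested.

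**Figure D2:**
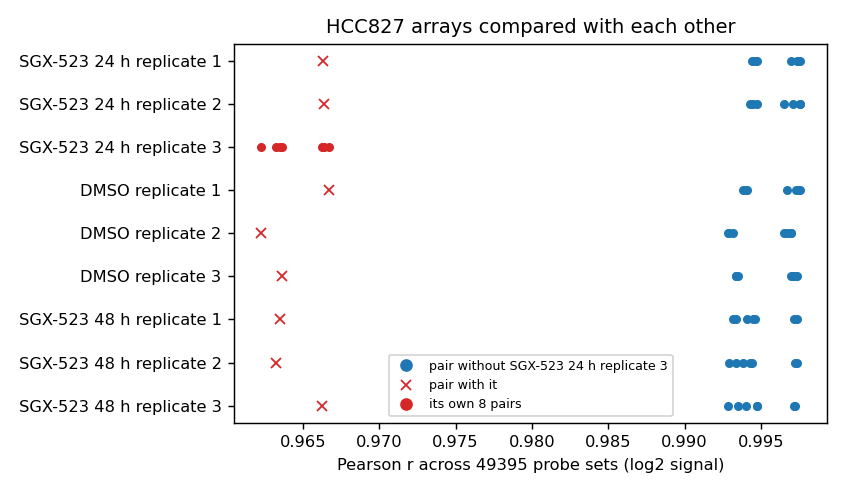
Pearson r across 49395 probe sets between each HCC827 array (row) and the other 8, with pairs that involve SGX-523 24 h replicate 3 in red. All pairs with replicate 3 lie below 0.967 and all others above 0.992.

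Genes on which replicate 3 was far from its group did not form a single direction. ZNF440, a zinc finger gene, was at 9.10, 9.21 and 11.69 (log2 signal) on SGX-523 24 h replicates 1, 2 and 3, against 9.07, 8.57 and 8.85 on the DMSO arrays. SRP9, a subunit of the signal recognition particle, was at 10.90, 10.96 and 7.32 on the treated arrays, against 11.01, 10.97 and 11.03 on the DMSO arrays. ADAM10, the protease that sheds ERBB ligands, was at 7.24, 7.41 and 4.43 on the treated arrays, against 7.50, 7.57 and 7.54 on the DMSO arrays. In each of these, replicates 1 and 2 lay near DMSO and replicate 3 lay more than 2 log2 units away. RRN3, an initiation factor of RNA polymerase I, and SUCLA2 were also among the lowest on replicate 3, and GNG11, MACROH2A2 and PRR12 among the highest. When replicate 3 was 1 of only 2 treated arrays in the fit, 2393 genes (without replicate 1) or 2674 genes (without replicate 2) were called, against 20 when it was left out. The main results follow with and without replicate 3. Where the difference of a gene or the median of a list is given once, it is from the fit without replicate 3. The value with all arrays can differ from it.

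The label of the line was checked against lineage markers. Of 15 lung alveolar and airway markers, 6 were below the array median on all 9 HCC827 arrays, among them the surfactant gene SFTPA1 (2.79 to 3.74 on treated arrays, against 2.8 to 2.98 on DMSO arrays) and SCGB1A1 of airway secretory cells (3.61 to 4.55 on treated arrays, against 3.48 to 3.69 on DMSO arrays). All 10 epithelial markers lay above the median of their array on the treated and the DMSO arrays, and the lung lineage genes NKX2-1 and NAPSA, which mark lung adenocarcinoma, were at 6.76 to 7.31 and 9.33 to 10.02 on treated arrays, against 6.89 to 7.1 and 9.35 to 9.39 on DMSO arrays, where the array medians were 5.71 to 5.72. Of the markers of other cell types, 9 of 10 for fibroblasts, 8 of 9 for leukocytes, 6 of 8 for endothelial cells, 8 of 11 for stomach and intestine and 3 of 7 for squamous cells were below the array median on all 9 HCC827 arrays. The summed linear level of the leukocyte list was 581 to 711 on treated arrays, against 583 to 627 on DMSO arrays, and its highest value was that of replicate 3. The same array gave the highest treated sum in each of the 7 marker lists. Its dimmest probe sets tended to read higher, and the part of that in the sums was not tested. For fibroblasts the sums were 214 to 255 on treated arrays, against 204 to 223 on DMSO arrays. For endothelial cells they were 233 to 341, against 235 to 253, and for the epithelial list 44961 to 48490, against 43895 to 46024. Probe sets for 18S ribosomal RNA at its 5′ end read 11.52, 11.70 and 11.36 on treated arrays, against 12.02, 12.08 and 12.07 on DMSO arrays, and their part in the gene results was not tested. The fibroblast list had 2 of its 10 genes bright enough to be tested, the leukocyte list 3 and the endothelial list 1, and none was called.

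The genes that rose were of several kinds, and the promoters of 4 of them are shown. SOX4 is the brightest gene that rose with and without replicate 3, AGR2 and TSPAN8 were called under each of the 11 settings of the fit without replicate 3 that were tried and on leaving out each further array, and FGG had the largest rise. FGG is dim on the 24 h and DMSO arrays and was tested only because the HCC827 48 h arrays, where it is higher, passed the filter on dim probe sets. The sequences run from 250 bases before to 50 after the start of the gene and come from RefSeq on GRCh38.p14. SOX4 lies at chr6:21593501-21593800 on the + strand, AGR2 at chr7:16804950-16805249 on the - strand, TSPAN8 at chr12:71157950-71158249 on the - strand and FGG at chr4:154612607-154612906 on the - strand. Capitals mark a FOXO-type match (GTAAACA or its reverse complement) in TSPAN8 and an antioxidant-type match (TGACNNNGC) in FGG.
SOX4: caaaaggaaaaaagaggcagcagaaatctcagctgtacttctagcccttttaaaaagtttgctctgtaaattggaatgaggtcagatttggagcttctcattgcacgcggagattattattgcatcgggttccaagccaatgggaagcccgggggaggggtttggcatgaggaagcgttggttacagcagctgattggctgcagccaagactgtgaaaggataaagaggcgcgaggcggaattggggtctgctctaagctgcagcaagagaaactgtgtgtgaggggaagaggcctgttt
AGR2: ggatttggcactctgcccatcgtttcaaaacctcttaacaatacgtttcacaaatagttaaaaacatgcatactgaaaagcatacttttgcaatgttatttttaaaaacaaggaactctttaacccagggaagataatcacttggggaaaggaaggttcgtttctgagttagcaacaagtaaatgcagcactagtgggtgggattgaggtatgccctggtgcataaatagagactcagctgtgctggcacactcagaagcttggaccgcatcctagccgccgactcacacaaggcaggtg
TSPAN8: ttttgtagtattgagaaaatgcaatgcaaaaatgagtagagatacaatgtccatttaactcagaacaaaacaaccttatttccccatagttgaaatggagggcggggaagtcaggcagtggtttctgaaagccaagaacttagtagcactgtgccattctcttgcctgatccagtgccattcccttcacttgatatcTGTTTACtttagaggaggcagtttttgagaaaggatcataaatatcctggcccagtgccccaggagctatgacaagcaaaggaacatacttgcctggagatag
FGG: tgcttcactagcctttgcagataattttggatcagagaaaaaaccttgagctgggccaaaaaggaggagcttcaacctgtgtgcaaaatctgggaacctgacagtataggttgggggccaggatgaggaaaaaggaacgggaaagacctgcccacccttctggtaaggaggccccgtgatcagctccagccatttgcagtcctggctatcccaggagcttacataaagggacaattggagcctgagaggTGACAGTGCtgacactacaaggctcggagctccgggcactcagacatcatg
Of the 20 genes called without replicate 3, 16 had a promoter in the table. GTAAACA was found on either strand in 2 of the 16 (GDF15 and TSPAN8) and in 3.4% of 35116 promoters, TGACNNNGC in 5 (CD24, CTSZ, FGG, HMGCS1 and VAV3) and in 13.3%, and the AP-1 letters TGANTCA in 1 (VAV3) and in 7.7%. The STAT letters TTCCNGGAA, found in 1.1% of promoters, and the ETS letters CCGGAAGT, found in 4.1%, were in none of the 16. The counts are of genes with a match in any of their promoters, while the percentages are of single promoters. A gene with several promoters has more places for a match, so the counts cannot be read against the percentages. TSPAN8 had 2 overlapping promoters with the same match, of which 1 is shown. These are letter matches only, and the motifs may overlap each other.

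Of the genes called both ways, SOX4, a transcription factor of the SOX family, was at 11.37, 11.35 and 11.36 on the SGX-523 24 h arrays, against 11.16, 11.07 and 11.08 on the DMSO arrays. All 3 treated arrays, replicate 3 included, lay above all DMSO arrays, an arrangement that 5.87% of all genes showed. The log2 difference was 0.26 ± 0.04 (SE) with all arrays, adjusted p = 0.0088 in limma, and 0.26 ± 0.04 without replicate 3, adjusted p = 0.00065. All 7 of its kept probe sets were higher without replicate 3. AKR1C3, an aldo-keto reductase of steroid and prostaglandin metabolism that NRF2 is known to induce, was at 9.25, 9.20 and 9.32 on the treated arrays, against 9.0, 9.06 and 8.98 on the DMSO arrays. Its log2 difference was 0.24 ± 0.05 with all arrays (limma adjusted p = 0.045) and 0.21 ± 0.04 without replicate 3 (adjusted p = 0.030).

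VWA5A and TMT1A also rose in both fits; both are dim, fall outside the rule for named genes for that reason, and are named after their values were seen. VWA5A was at 5.31, 5.25 and 5.26 on the SGX-523 24 h arrays, against 4.95, 4.81 and 4.89 on the DMSO arrays. TMT1A, a thiol methyltransferase, was at 5.07, 5.03 and 5.35 on the treated arrays, against 4.59, 4.53 and 4.84 on the DMSO arrays. No treated array overlapped the DMSO arrays in either gene. Each rise rests on 1 probe set: without replicate 3 the other 5 of VWA5A differed by -0.17 to 0.17 and the other 2 of TMT1A by -0.22 and 0.05. With the mean of all probe sets the differences were 0.07 for VWA5A and 0.08 for TMT1A without replicate 3, and 0.16 and 0.15 with all arrays, none of them called. In the fit of all arrays, leaving out DMSO replicate 2 ended all 4 calls and leaving out DMSO replicate 3 left 1.

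The genes called only without replicate 3 are given next. TSPAN8, a tetraspanin of epithelial cells, was at 9.03 and 8.91 on treated replicates 1 and 2 and at 7.70 on replicate 3, against 8.49, 8.42 and 8.34 on the DMSO arrays. Without replicate 3 it rose by 0.55 ± 0.05 on the log2 scale (limma adjusted p = 1.88e-07), and with it the difference was 0.13 ± 0.18 (adjusted p = 0.68). AGR2, a disulfide isomerase of the endoplasmic reticulum that serves mucin folding, was at 8.24 on replicate 1, 8.24 on replicate 2 and 7.80 on replicate 3, against 7.91, 7.88 and 7.79 on the DMSO arrays. It rose by 0.38 ± 0.04 without replicate 3 (adjusted p = 4.09e-06), and the difference with all arrays was 0.23 ± 0.07 (adjusted p = 0.21). Replicate 3 lay below all DMSO arrays in TSPAN8 and among them in AGR2, apart from the other treated arrays.

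PDIA3, another disulfide isomerase, which also folds MHC class I molecules, was at 10.12, 10.19 and 9.83 on the SGX-523 24 h arrays, against 9.79, 9.84 and 9.58 on the DMSO arrays. It rose by 0.42 ± 0.06 without replicate 3 (limma adjusted p = 0.00065), on 1 of its 2 kept probe sets, the other differing by -0.02. With all arrays the difference was 0.31 ± 0.08 (adjusted p = 0.20). SPINK1, a secreted trypsin inhibitor, was at 8.17, 8.08 and 7.90 on the treated arrays, against 7.80, 7.63 and 7.57 on the DMSO arrays, and rose by 0.46 ± 0.09 (adjusted p = 0.023). In SPINK1 all 3 treated arrays were above the DMSO arrays, and with all arrays its difference was 0.38 ± 0.09 (adjusted p = 0.15).

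VAV3, a guanine nucleotide exchange factor, was at 7.98, 8.21 and 7.51 on the SGX-523 24 h arrays, against 7.43, 7.47 and 7.38 on the DMSO arrays. Its rise of 0.67 ± 0.07 without replicate 3 (limma adjusted p = 2.06e-07) came from 1 of 6 probe sets: the other 5 differed by -0.11 to 0.11, and with the mean of all probe sets the difference was 0.13. FGG, the gamma chain of fibrinogen, was at 5.72, 5.63 and 4.21 on the treated arrays, against 4.85, 5.02 and 4.86 on the DMSO arrays. It rose by 0.77 ± 0.15 without replicate 3 (adjusted p = 0.025), while replicate 3 lay below all DMSO arrays and the difference with all arrays was 0.28 ± 0.24 (adjusted p = 0.49).

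The other genes that rose without replicate 3, named after their values were seen, were the secreted stress cytokine GDF15 (0.32 ± 0.07), the cholesterol synthesis enzyme HMGCS1 (0.27 ± 0.06), the acyl-CoA synthetase ACSM3 (0.35 ± 0.07), the lysosomal protease CTSZ (0.32 ± 0.07), the surface glycoprotein CD24 (0.22 ± 0.05), the nuclear receptor coactivator NCOA7 (0.24 ± 0.05), the translocon protein TRAM1 (0.18 ± 0.04) and SMIM14 (0.28 ± 0.05), as log2 differences with SE. Of the 18 higher genes, 11 had replicate 3 above all DMSO arrays and 5 had it below all of them. The share of all genes with replicate 3 placed in these ways was not counted, so both counts are a description only. On leaving out 1 further array, 3 of the 20 calls (AGR2, TSPAN8 and VAV3) were made each time and 5 (CD24, GDF15, HMGCS1, TRAM1 and SINHCAF) never. With all arrays the difference of ACSM3 was -0.10 and that of SMIM14 was -0.08.

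The fit without replicate 3 had 2 genes that fell. SUCLA2, a subunit of the mitochondrial succinyl-CoA ligase, was at 8.22 and 8.29 on treated replicates 1 and 2 and at 5.91 on replicate 3, against 8.53, 8.60 and 8.55 on the DMSO arrays. It fell by 0.30 on the log2 scale without replicate 3 (SE 0.06, limma adjusted p = 0.023), and the means were lower on all 5 of its probe sets. With all arrays the SUCLA2 difference was -1.09 ± 0.33 and was not called (adjusted p = 0.21). SINHCAF, a subunit of the SIN3 histone deacetylase complex, was at 10.38, 10.45 and 10.53 on the treated arrays, against 10.61, 10.59 and 10.58 on the DMSO arrays, and fell by 0.18 (SE 0.04, adjusted p = 0.034). With all arrays the SINHCAF difference was -0.14 (adjusted p = 0.21).

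**Figure D3:**
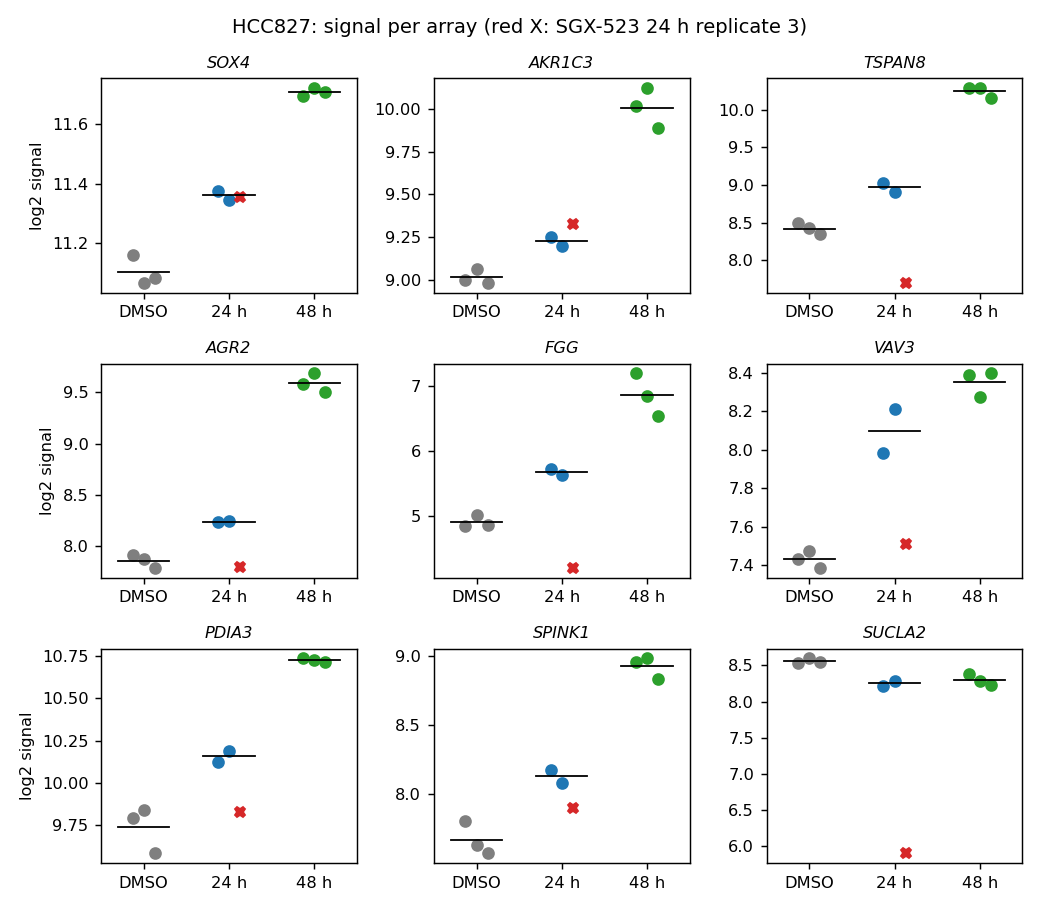
Log2 signal of 9 genes on each HCC827 array for DMSO, SGX-523 24 h and SGX-523 48 h; the line is the group mean, taken without replicate 3 at 24 h, and the red X is that replicate. SOX4 and AKR1C3 keep all 3 treated arrays above DMSO at 24 h, TSPAN8 and FGG have replicate 3 below DMSO, SUCLA2 is nearly level between 24 h and 48 h, and the other 8 genes are higher at 48 h.

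Of the receptors themselves, none passed the test. MET transcripts, at 12.18, 12.43 and 11.43 on the SGX-523 24 h arrays, against 12.20, 12.24 and 12.18 on the DMSO arrays, were among the brightest, and replicate 3 was the lowest of these arrays on all 6 MET probe sets. The log2 difference was 0.10 (95% interval -0.06 to 0.25) without replicate 3 and -0.19 (-0.49 to 0.10) with it. Its sign depended on the probe set: without replicate 3, 2 of the 6 were higher and 4 lower. Those not used for the gene differed by -0.30 to 0.19. EGFR was at 11.94, 11.97 and 12.18 on the treated arrays, against 11.95 to 12.03 on the DMSO arrays. Its difference was -0.04 (-0.14 to 0.06) without replicate 3 and 0.04 (-0.08 to 0.15) with it. All 6 kept EGFR probe sets were lower without replicate 3, by differences of -0.24 to -0.03. On some of those not used for the gene, replicates 1 and 2 lay below all DMSO arrays. The 2 groups overlapped in EGFR and in MET on the probe set used for each.

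ERBB3, the ERBB partner receptor that rises when FOXO is active, was at 7.84, 7.89 and 8.36 on the SGX-523 24 h arrays, against 7.83, 7.71 and 7.65 on the DMSO arrays. Its difference was 0.14 (95% interval 0.03 to 0.25, limma adjusted p = 0.66) without replicate 3 and 0.30 (0.12 to 0.49, adjusted p = 0.21) with it. In EBC-1 and MKN-45 the same difference was 3.49 and 1.92. MST1R, the receptor closest to MET, differed by -0.17 (-0.42 to 0.07) without replicate 3 and by -0.01 (-0.28 to 0.25) with it. HGF, the MET ligand, was too dim to be tested. Of the 26 of 32 listed receptor kinases that were tested, none was called, where 0.161% of all genes were without replicate 3. All 26 intervals without replicate 3 lay within 1.5-fold, as did 98.5% of all genes.

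ERK output transcripts differed little from their DMSO level in HCC827. None of the 23 listed genes was called in either fit, the median log2 difference was -0.11 without replicate 3 and -0.16 with it, and 5 of the 23 were above 0, where 50.4% of all genes were and the median of all genes was 0.00. Replicates 1 and 2 lay below all DMSO arrays in 11 of the 23, as in 12.5% of all genes, and above them in 2. Without replicate 3 the intervals of 22 of the 23 lay within 1.5-fold, where those of 98.5% of all genes did. In the MET-dependent lines the median of the same list was -2.65 in EBC-1, with 19 of 23 called lower (31.8% of all genes), and -2.39 in MKN-45, with 21 called lower (30.3% of all genes).

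DUSP6, the ERK phosphatase, was at 8.55, 8.47 and 7.48 on the SGX-523 24 h arrays of HCC827, against 8.63, 8.70 and 8.57 on the DMSO arrays. Without replicate 3 its difference was -0.12 (95% interval -0.29 to 0.04), where EBC-1 gave -4.07 and MKN-45 gave -6.26. With all arrays it was -0.47 (-0.80 to -0.13, limma adjusted p = 0.21). HMGA2, a chromatin protein, was at 10.42, 10.38 and 9.97 on the treated arrays, against 10.50, 10.58 and 10.56 on the DMSO arrays. Without replicate 3 the p of HMGA2 was the smallest of the list, with a difference of -0.14 (-0.23 to -0.06) and a limma adjusted p of 0.28. With all arrays its difference was -0.29 (-0.44 to -0.14, adjusted p = 0.21). On the probe set used for each, both genes had every treated array below every DMSO array, as did 6.44% of all genes. The other kept DUSP6 probe sets differed by -0.26, -0.23 and -0.17 without replicate 3, and on some of them the groups overlapped.

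FOSL1, an AP-1 subunit stabilised by ERK, was at 9.02, 8.99 and 9.46 on the SGX-523 24 h arrays, against 9.27, 9.39 and 9.29 on the DMSO arrays, and replicate 3 was on the other side of DMSO from replicates 1 and 2. The differences without replicate 3 were -0.31 for FOSL1, -0.30 for the ETS factor ETV1 and -0.15 for PHLDA1, with adjusted p-values of 0.71, 0.75 and 0.50. With all arrays they were -0.16, -0.56 and -0.43. MYC and CCND1 (cyclin D1), chosen after their values were seen, gave 0.06 (95% interval -0.09 to 0.22) and -0.16 (-0.32 to -0.01), where EBC-1 gave -3.31 and -3.49.

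**Figure D4:**
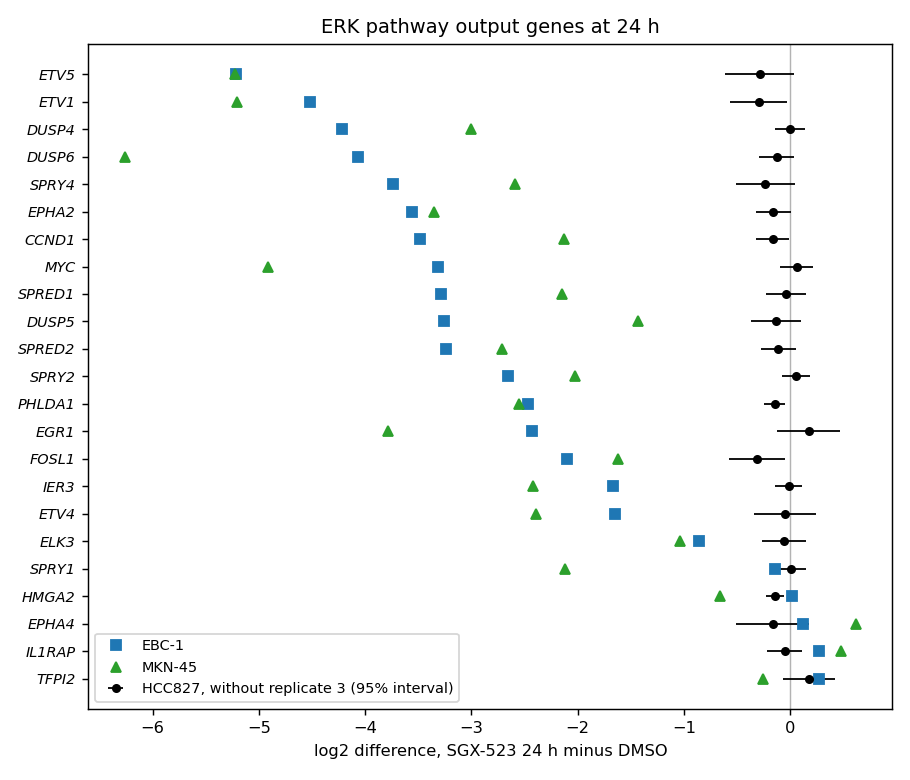
Log2 difference, SGX-523 24 h minus DMSO, of the 23 ERK output genes in HCC827 without replicate 3 (circles with 95% intervals), EBC-1 (squares) and MKN-45 (triangles). The HCC827 values lie between -0.31 and 0.18 while DUSP6 is at -4.07 in EBC-1 and -6.26 in MKN-45.

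Cell cycle transcripts also stayed near their DMSO level. Of 25 mitosis genes none was called, and the median difference was -0.01 without replicate 3 and -0.02 with it. Without replicate 3 all 25 intervals lay within 1.5-fold, as did 98.5% of all genes, and 0.161% of all genes were called. These counts therefore do not set the list apart from other genes in HCC827. All 25 mitosis genes were called lower in EBC-1 (median -3.19, 31.8% of all genes) and in MKN-45 (median -3.11, 30.3% of all genes). Of 24 G1/S and DNA replication genes tested out of 26 listed, none was called in HCC827 and the median was -0.01 without replicate 3 and -0.11 with it, beside -2.28 in EBC-1 and -2.44 in MKN-45. RRM2, the ribonucleotide reductase subunit that cells make for DNA synthesis, was at 11.32, 11.45 and 11.34 on the HCC827 SGX-523 24 h arrays, against 11.34, 11.40 and 11.33 on the DMSO arrays. The 2 groups overlapped, with a difference of 0.03 (-0.19 to 0.25) without replicate 3, and EBC-1 gave -6.00.

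Growth and metabolism lists showed the same. None of 21 ribosome biogenesis genes was called (median -0.03 without replicate 3, beside -1.60 in EBC-1 and -0.92 in MKN-45), nor any of 19 glycolysis genes (-0.01, beside -0.88 and -1.77) or 14 heat shock genes (0.00, beside -1.22 and -0.85). Of 19 sterol and fatty acid synthesis genes 1 was called, HMGCS1, and the median of the list was 0.00. Without replicate 3 the intervals of all the genes in these 4 lists lay within 1.5-fold, as did 98.5% of all genes, and 0.161% of all genes were called. With all arrays the medians of the 4 lists were 0.03, 0.04, -0.07 and 0.02, in the order given. Of 22 cytosolic ribosomal protein genes none was called, with differences of -0.04 to 0.06.

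FOXO targets and receptor feedback genes gave a median of 0.05 over 20 genes without replicate 3 and -0.06 with it, none called, beside 1.75 in EBC-1 and 0.66 in MKN-45. INSR, the insulin receptor, was at 6.62, 6.61 and 6.35 on the SGX-523 24 h arrays, against 6.43, 6.46 and 6.29 on the DMSO arrays, and CDKN1B, the cell cycle inhibitor p27, at 9.56, 9.66 and 8.87, against 9.39, 9.42 and 9.32. Replicates 1 and 2 were above all DMSO arrays in both genes, as in 13.7% of all genes, and replicate 3 was not. The differences were 0.22 and 0.23 without replicate 3 (limma adjusted p = 0.30 and 0.47). In EBC-1 they were 1.96 and 1.64.

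**Figure D5:**
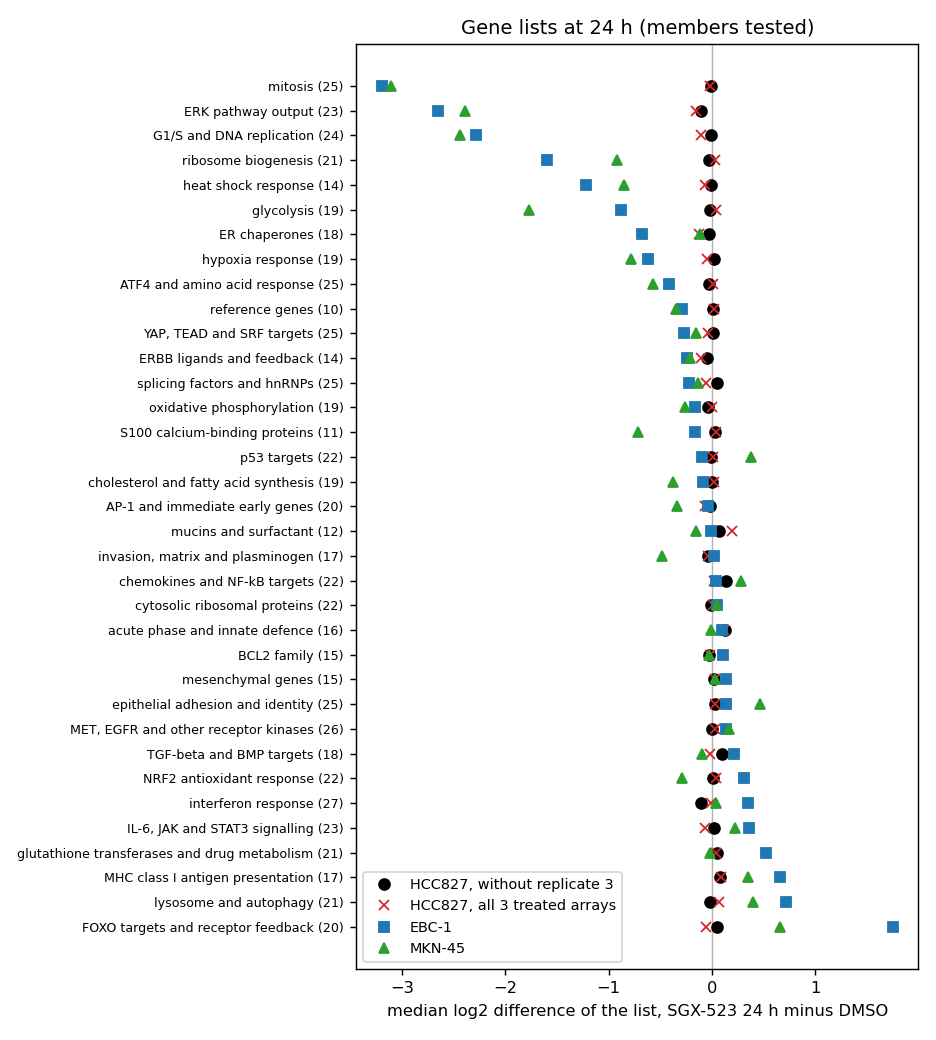
Median log2 difference, SGX-523 24 h minus DMSO, of 35 gene lists (members tested in parentheses) in HCC827 without and with treated replicate 3, EBC-1 and MKN-45. The HCC827 medians without replicate 3 stay between -0.11 and 0.14, while the mitosis list is at -3.19 in EBC-1 and -3.11 in MKN-45.

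Without replicate 3 the chemokine and acute phase lists had the largest medians of the 35 lists in HCC827, and single genes mostly did not pass the test. With all arrays the largest was that of mucins and surfactant (0.20). The acute phase median includes SAA2, C3 and FGG, and the chemokine median includes CXCL6 and IL6. These members passed the filter on dim probe sets only through the HCC827 48 h arrays. Of the 30 listed acute phase and innate defence genes, 16 were tested, 1 was called (FGG) and the median was 0.13 without replicate 3 and 0.11 with it. FGB, the fibrinogen beta chain, was at 9.27, 9.10 and 8.96 on the SGX-523 24 h arrays, against 8.63, 8.59 and 8.47 on the DMSO arrays. All 3 treated arrays were above all DMSO arrays, with a difference of 0.62 without replicate 3 (limma adjusted p = 0.14) and 0.55 with it. The serum amyloid genes SAA1 and SAA2 gave 0.57 and 0.52 without replicate 3 (adjusted p = 0.10 and 0.26).

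The chemokine and NF-kB list had a median of 0.14 over 22 genes without replicate 3 and 0.02 with it, none called. CXCL2, a neutrophil chemokine, was at 9.47, 9.40 and 8.41 on the SGX-523 24 h arrays, against 8.88, 9.02 and 9.16 on the DMSO arrays. Replicates 1 and 2 were above DMSO and replicate 3 below it, and CXCL5 and CXCL3 were placed in the same way. The interferon list had a median of -0.11 over 27 genes without replicate 3, with 4 of 27 above 0, and of -0.01 with it. IFI6 and IFIT1, both interferon-induced, gave -0.36 and -0.40 and BST2, an antiviral membrane protein, gave 0.30, none of them called (adjusted p = 0.25, 0.58 and 0.18).

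The remaining lists added few calls. Without replicate 3, 1 of 22 NRF2 targets (AKR1C3), 1 of 22 p53 targets (GDF15), 1 of 18 endoplasmic reticulum chaperones (PDIA3) and 1 of 12 mucin and surfactant genes (AGR2) were called, beside 0.161% of all genes, and a single member per list is too few to read against that share. None was called among 25 epithelial adhesion genes, 15 mesenchymal genes, 15 BCL2 family genes, 21 lysosome and autophagy genes or 25 YAP, TEAD and SRF targets, whose medians were 0.03, 0.02, -0.03, -0.02 and 0.01. In AP-1 and immediate early genes, FOS was at 5.7, 5.69 and 4.30 on the SGX-523 24 h arrays, against 5.34, 5.36 and 5.34 on the DMSO arrays, close to the array median of 5.71. Its difference was 0.35 without replicate 3 and -0.12 with it.

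The response of HCC827 was then tested against that of each MET-dependent line. The 24 h response of HCC827 differed from that of EBC-1 in 6390 genes with all arrays (51.6%) and in 7088 without replicate 3 (57.2%), and from that of MKN-45 in 6525 genes (52.7%) and in 7201 (58.1%). Without replicate 3, all 25 mitosis genes had a higher response in HCC827 than in either line, and so had 18 and 21 of the 23 ERK output genes, where 27.6% and 26.1% of all genes did. The differences were 6.03 for RRM2 and 5.78 for SPC25, a kinetochore subunit, against EBC-1, and 6.14 for DUSP6 against MKN-45, all as differences of log2 responses. In the other direction were GSTA1, a glutathione transferase (-4.23 against EBC-1 and -5.80 against MKN-45), HPGD, the enzyme that degrades prostaglandins (-4.18 against EBC-1), and UGT2B15, a glucuronosyl transferase (-5.94 against MKN-45). GSTA1 was at 3.16, 3.14 and 3.29 on the HCC827 SGX-523 24 h arrays, against 3.15, 2.96 and 3.17 on the DMSO arrays, below the array median throughout, so it was near the lower end of the scale in this line.

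Medians of the deposited values were 5.71 to 5.73 on the 9 HCC827 arrays and 5.02 to 5.14 on the arrays of the other lines, so levels were not compared between lines. Across genes, the HCC827 response without replicate 3 correlated with that of EBC-1 at r = 0.18 and with that of MKN-45 at r = 0.15, where EBC-1 and MKN-45 correlated with each other at 0.65. With all arrays the values for HCC827 were 0.11 and 0.06. These describe 12386 genes that are not independent, and the lines share no arrays. Of the 18 genes higher in HCC827 without replicate 3, 14 were also called higher in EBC-1 (35.9% of all genes) and 2 lower, and 12 were called higher in MKN-45 (38% of all genes) and 4 lower. SOX4 gave 2.80 in EBC-1 and 1.64 in MKN-45, and SPINK1 gave 2.41 and 5.97. GDF15 and AGR2 did not share a direction across lines: GDF15 gave -1.83 in EBC-1 and AGR2 gave -0.77 in MKN-45.

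Treated HCC827 cells differed between 48 h and 24 h in many more genes than treated and DMSO cells did at 24 h. With all arrays 3286 genes were called (26.5%), 1956 higher and 1330 lower at 48 h. Without replicate 3 there were 3564 (28.8%), 1743 higher and 1821 lower, and 1366 of the higher and 948 of the lower genes were called both ways. With quantile normalisation of all arrays the split was 1784 higher and 1877 lower. Of the 18 genes higher at 24 h without replicate 3, 15 were higher again at 48 h than at 24 h in both fits and 1, HMGCS1, was lower. HMGCS1 was at 9.12, 9.06 and 9.15 on the 48 h arrays, against 9.44, 9.40 and 9.21 on the 24 h arrays. Because the choice of these genes used the 24 h arrays, the count is a description.

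TSPAN8 was at 10.28, 10.28 and 10.15 on the 48 h arrays, 1.27 ± 0.05 above 24 h without replicate 3, and AGR2 at 9.59, 9.69 and 9.51, 1.35 ± 0.04 above. SOX4 was at 11.70, 11.72 and 11.71, which is 0.35 ± 0.04 above 24 h. For these genes the 24 h level of replicates 1 and 2 lay between the 48 h arrays and DMSO. VWA5A, at 5.43, 5.41 and 5.50 on the 48 h arrays, was 0.17 ± 0.08 above 24 h and was not called (limma adjusted p = 0.10).

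Other genes showed no call at 24 h and differed at 48 h. S100P, a calcium-binding protein, was at 8.98, 8.92 and 8.60 on the 48 h arrays, against 6.95, 6.71 and 7.0 on the 24 h arrays, and DMSO arrays read 6.74, 6.75 and 6.67. MMP1, interstitial collagenase, was at 5.02, 4.63 and 4.69 on the 48 h arrays, against 6.84, 6.60 and 5.65 on the 24 h arrays, and DMSO arrays read 6.80, 6.63 and 6.63. The 48 h arrays stood clear of both other groups in these genes. Without replicate 3, S100P was 2.01 ± 0.08 higher at 48 h than at 24 h (limma adjusted p = 5.9e-18) and MMP1 was lower by 1.94 on the log2 scale, the difference being -1.94 ± 0.13 (adjusted p = 3.1e-12).

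By list, 15 of the 16 acute phase and innate defence genes that were tested, of 30 listed, were higher at 48 h than at 24 h with and without replicate 3 (15.8% and 14.1% of all genes). SAA2, C3 and FGG passed the filter on dim probe sets only through the 48 h arrays, and of the other 13 tested members 12 were higher at 48 h in both fits. Since dim members were not tested, these counts do not speak for the whole list. SAA1 was at 8.07, 8.11 and 7.99 on the 48 h arrays, against 6.49, 6.47 and 6.08 on the 24 h arrays. Among ribosome biogenesis genes, 20 of 21 were lower at 48 h than at 24 h without replicate 3 and 17 with it (14.7% and 10.7% of all genes), with a median of -0.38. Of the G1/S genes 16 of 24 were lower without replicate 3 and 9 with it, and of the mitosis genes 1 of 25 was lower and 3 were higher in both fits. In ERK output 4 of 23 were higher and 6 lower without replicate 3, and 7 higher and 3 lower with it. EGR1, an immediate early transcription factor named after its values were seen, was at 10.27, 10.53 and 10.25 on the 48 h arrays, against 8.81, 8.75 and 8.67 on the 24 h arrays.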

How the data were processed

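RNA of HCC827, EBC-1 and MKN-45 cells was hybridised to Affymetrix expression arrays after biotin labelling, per the labels' protocols. The authors deposited 1 table of 49395 probe sets for 27 arrays. The values the authors deposited are log2 signals, read from their range of 1.87 to 14.38; MAS5 is named in the submitters' processing notes without a role, and the sources used here give no normalization. Probe sets were named through the platform annotation and RefSeq: 44988 had 1 gene, 1832 several and 2473 none, and 44961 matched by gene ID. Probe sets reaching the median of their array on at least 3 arrays were kept (29747), and the brightest per gene was used, giving 12386 genes.

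One limma model (R 4.3.3, limma 3.58.1) held the 9 group means of all 27 arrays (18 residual degrees of freedom), with a mean-variance trend and Benjamini-Hochberg adjustment over all genes; a second left out HCC827 SGX-523 24 h replicate 3 (17). Adjusted p-values named limma's come from these models. It was tested on simulated data. Intervals are 95% and unadjusted for the number of genes. Precision is limited by having 3 arrays per group. The members, 35 gene lists and 7 marker lists were chosen with earlier results of these data known.

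Named genes were MET, HGF, EGFR, ERBB3 and MST1R; the largest rises and falls called in both fits with groups that do not overlap and a mean above the median of all genes, filled to 6 per direction with genes called only without replicate 3; 8 per direction for replicate 3; from each list, genes among the 4 with the smallest p; and 5 per direction for each difference. Others are said to be chosen after their values were seen. Alternatives changed normalization, offset, filter, model and probe set choice and left out each array.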

Additional observations from a re-analysis of the deposited data

Results flagged for a closer look

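The values here are differences between responses or times that passed the limma test of the difference with and without HCC827 SGX-523 24 h replicate 3, printed without it. Against EBC-1, the 24 h response of HCC827 was higher by 6.03 for RRM2, 5.78 for SPC25 and 5.31 for SHCBP1 (log2 units). It was lower for GSTA1 (-4.23), HPGD (-4.18), ABCA1 (-4.12), ERBB3 (-3.35) and EGFR (-0.73). Against MKN-45 it was higher for FOS (7.12), DUSP6 (6.14), SPC25 (5.50), MST1R (0.89) and EGFR (0.59). It was lower for UGT2B15 (-5.94), GSTA1 (-5.80), ANO3 (-5.57) and ERBB3 (-1.78). EGFR thus differed in opposite directions from the 2 lines. GSTA1, UGT2B15, ANO3 and FOS lay below or near the array median in HCC827; 964 of the 12386 genes (7.8%) were below it on all 9 HCC827 arrays.

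Between the times, HCC827 cells at 48 h were above those at 24 h for SLC60A1 (2.09), S100P (2.01), S100A9 (1.67) and ERBB3 (0.60), and below for MMP1 (-1.94), ABCC9 (-1.29) and MMP9 (-1.19). ERBB3 was at 8.53, 8.45 and 8.42 on the 48 h arrays, against 7.84, 7.89 and 8.36 on the 24 h arrays, so replicate 3 lay nearer the 48 h arrays than its own group did.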

How the results depend on the processing

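The 4 calls with all arrays became 27 under quantile normalization, 1 without a filter on dim probe sets, and 0 with HCC827 arrays only, with no intensity trend and with the mean of all probe sets in limma (unadjusted p under 0.05 in 516, 2463 and 3180 genes). The 20 calls without replicate 3 became 35 with an offset of 32, 48 with HCC827 arrays only, 8 with no trend, 77 with array weights and 9 with the mean of all probe sets. Same-numbered SGX-523 24 h and DMSO arrays correlated at -0.197, 0.084 and -0.007 in their deviations. Replicate 3 weighs on the deviations of its whole group, so these values cannot decide whether the replicate numbers pair the arrays. With the replicate block the counts were 0 (2711 unadjusted) and 6. Leaving out 1 array gave 0 to 2674 calls with all arrays, the upper end from fits with replicate 3 as 1 of 2 treated arrays, and 6 to 17 without replicate 3. On leaving out 1 array, ACSM3 ran from -0.36 to 0.35 and SMIM14 from -0.29 to 0.28, both positive ends without replicate 3. The calls at 48 h against 24 h fell to 1059 with HCC827 arrays only, and leaving out 1 array gave 2326 to 4521. The counts against EBC-1 and MKN-45 stayed within 1.5 times under the alternatives run, with 6022 to 7088 and 6116 to 7201 on leaving out 1 array. Of 526 other values for single genes, 430 kept direction and side of the threshold, 82 lost the call, 14 gained it and 0 changed direction. On leaving out 1 array, of 264 such values 153 kept both, 75 lost the call, 34 gained it and 2 changed direction. The causes were not tested. Genes near the lower end of the scale can show no fall.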
